A study of Mus musculus with 16 samples.

Results

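Isolated C/EBPα sites are C/EBPα peaks that stand alone on the chromosome. A peak was taken as isolated when its centre had no other C/EBPα peak centre and no PPARγ peak centre within 10 kb. Of the 30519 C/EBPα peaks in the deposited list, 2 lie on the mitochondrial chromosome and were left out. The rule chose 7540 of the remaining 30517 peaks, or 24.7% (exact 95% interval 24.2 to 25.2%). It used positions in the peak lists and no signal value, although a position enters a list only where signal was high enough to be called. Low PPARγ signal at isolated sites therefore follows in part from the rule.

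C/EBPα is a basic leucine zipper transcription factor that binds DNA as a dimer and drives the late stage of fat cell differentiation. It works there with PPARγ, the nuclear receptor that is the target of rosiglitazone and other thiazolidinediones. The 2 factors are known to share many binding regions in adipocytes. MED1 is the Mediator subunit that ligand-bound nuclear receptors contact, and CBP is a histone acetyltransferase that many transcription factors recruit. Both serve here as coactivators whose presence can be measured beside each factor.

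The study used ChIP-seq, which sequences DNA fragments bound by a protein, in 3T3-L1 adipocytes, a mouse fibroblast line differentiated into fat cells in culture. The 16 samples form 12 groups of antibody and treatment. Cells at day 7 of differentiation received 1 µM rosiglitazone or, as the vehicle, 0.1% DMSO, for 1 h before fixation. C/EBPα, MED1 and CBP have 1 sample per treatment and PPARγ has 2, whose deposited columns name no replicate. The C/EBPα list and a PPARγ list of 30588 peaks give the same 8 columns of tag signal, 4 antibodies by 2 treatments. The RNA polymerase II and input samples are not analysed here.

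Each mapped read counts as 1 tag, and signal is the number of tags in the peak window after the authors' scaling of each library. The C/EBPα windows are 230 bp wide at all members but 1. Every value above 0 was a whole multiple of 1 step per column, within a tolerance of 0.02 steps, so tags could be recovered. If the scaling was to 10 M tags, which no source states, C/EBPα had 7.85 M tags in rosiglitazone and 4.53 M in DMSO, and PPARγ had 12.03 M and 11.37 M. MED1 had 1.31 M tags in rosiglitazone and 2.86 M in DMSO, and CBP had 1.65 M and 4.52 M. One MED1 tag was thus worth 7.65 units of signal in rosiglitazone and 3.49 in DMSO, and one CBP tag 6.06 and 2.21. With 1 column per antibody and treatment, no p-value can be given for a difference between treatments. The exact 95% binomial intervals of ratios and shares cover counting error only, because tags without molecular identifiers are not independent molecules and peaks are not replicates. The number of chromosomes out of 20 that share a direction is given as a description.

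The remaining 22977 C/EBPα peaks fall into 3 classes. Within 10 kb, 7654 peaks (25.1%) had a PPARγ peak but no second C/EBPα peak, 2193 peaks (7.19%) had another C/EBPα peak but no PPARγ peak, and 13130 peaks (43.0%) had both. The class with C/EBPα but no PPARγ nearby is the one closest to the isolated sites, since it too has no PPARγ peak within the limit. Among PPARγ peaks, 6527 of 30588 (21.3%) were isolated by the same rule.

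Isolated sites were far beyond the 10 kb limit in most cases. The distance to the nearest peak of either list had a median of 24.3 kb, quartiles of 15.4 and 46.8 kb and a 95th percentile of 168 kb. The nearest peak was a C/EBPα peak for 3968 sites and a PPARγ peak for 3562, and the 2 distances were equal for 10. At 1416 sites (18.8%) the nearest C/EBPα and PPARγ centres differed by at most 200 bp in distance. The member nearest to the limit, at chr14:70195289-70195519 (all coordinates are mm9), lay 10.001 kb from its neighbour. The non-member nearest to it, at chr12:45386960-45387190, lay 9.999 kb from a PPARγ centre. C/EBPα was 29.3 in rosiglitazone and 11.04 in DMSO at the member and 17.8 and 6.62 at the non-member. The authors' peak score was 21.8 at the member, above the upper quartile of 18.6 over isolated sites, and 13.7 at the non-member. Neither had a MED1 or CBP tag in either treatment. The 3 most remote members lie on the X chromosome. That at chrX:121331394-121331624 is 4803 kb from any other peak of either list, that at chrX:116281701-116281931 is 4735 kb away and that at chrX:63910613-63910843 is 1838 kb away. Their C/EBPα signal was 14.0, 8.92 and 10.2 in rosiglitazone and 22.1, 15.5 and 8.83 in DMSO in the same order. Their peak scores were 17.8, 11.3 and 9.7, beside a median of 12.9 over isolated sites.

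The share of C/EBPα peaks that were isolated ran from 14.7% (12.9 to 16.7%) on chromosome 19 to 33.0% (29.8 to 36.4%) on chromosome 18 and 39.2% (35.1 to 43.5%) on the X chromosome. It was low where peaks were dense, as the rule makes likely. C/EBPα peaks numbered 23.97 per Mb of the spanned chromosome on chromosome 19, 9.21 on chromosome 18 and 3.29 on the X chromosome. The number of isolated sites per Mb varied much less among autosomes, between 2.38 on chromosome 14 and 3.53 on chromosome 19, and was 1.29 on the X chromosome.

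Isolated sites were on the whole weaker C/EBPα peaks. Height, the mean of the C/EBPα signal in both treatments, had a median of 13.6 at isolated sites (quartiles 11.1 and 19.02), against 17.3 at the other C/EBPα peaks (quartiles 12.4 and 28.8), a ratio of 0.786. The median was 13.8 at peaks with only C/EBPα nearby, 17.8 with only PPARγ nearby and 17.9 with both. The lower height thus went with the lack of a PPARγ peak nearby: isolated sites and peaks with only C/EBPα nearby differed by a ratio of 0.984. In the deciles of the authors' peak score, isolated sites made up 37.5% (35.8 to 39.2%) of the lowest decile and 8.39% (7.43 to 9.43%) of the highest. The share fell at each step but one: it was 28.1% in the fourth decile and 28.3% in the fifth.

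**Figure D1:**
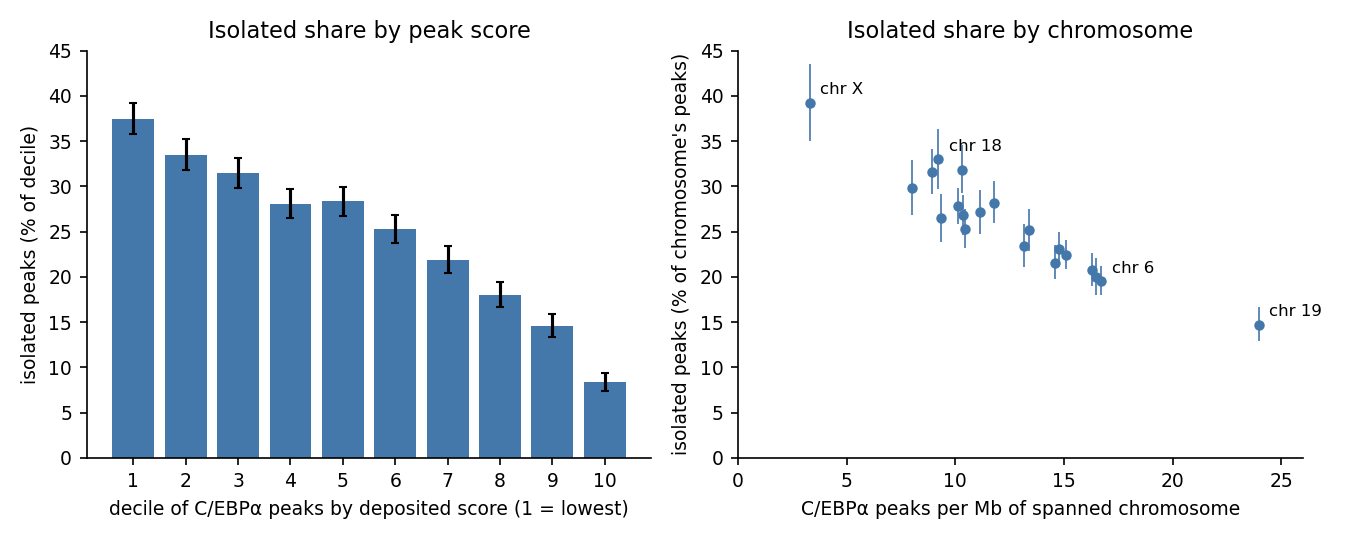
Left, isolated peaks as a percentage of each decile of the C/EBPα list by deposited score, with exact 95% intervals, which fall to 8.39% in the highest decile. Right, the same percentage per chromosome against C/EBPα peaks per Mb, where the X chromosome has the highest share (39.2%) and chromosome 19 the lowest (14.7%).

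The focus ratio, a fraction per peak deposited by the authors, had a median of 0.857 at isolated sites and 0.833 at the other peaks. It grew with the score in both classes, and isolated sites were higher than the pooled other peaks at equal score. At scores of 12 to 16 the medians were 0.842 at isolated sites and 0.810 at the others, and at scores of 80 to 400 they were 0.956 and 0.929. Below a score of 80, peaks with only C/EBPα nearby came closer to isolated sites. Their medians were 0.812 at scores of 8 to 12, 0.840 at 12 to 16 and 0.857 at 16 to 24. Isolated sites had 0.824, 0.842 and 0.867. At scores of 24 to 40 and 40 to 80 they had 0.891 and 0.918, beside 0.895 and 0.919 at isolated sites. At scores of 80 to 400 the 15 such peaks had a median of 0.884.

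The coactivators were sparse at isolated sites. Mean MED1 signal was 7.58 in rosiglitazone and 6.70 in DMSO at isolated sites, against 32.1 and 22.03 at the other C/EBPα peaks. Mean CBP signal was 6.79 in rosiglitazone and 6.34 in DMSO at isolated sites, against 19.99 and 15.6. Peaks with only C/EBPα nearby came between them but near the isolated sites, with MED1 at 9.77 in rosiglitazone and 8.74 in DMSO and CBP at 8.65 and 8.13. C/EBPα itself differed less, averaging 18.7 in rosiglitazone and 17.8 in DMSO at isolated sites and 28.3 and 28.1 at the other peaks.

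**Figure D2:**
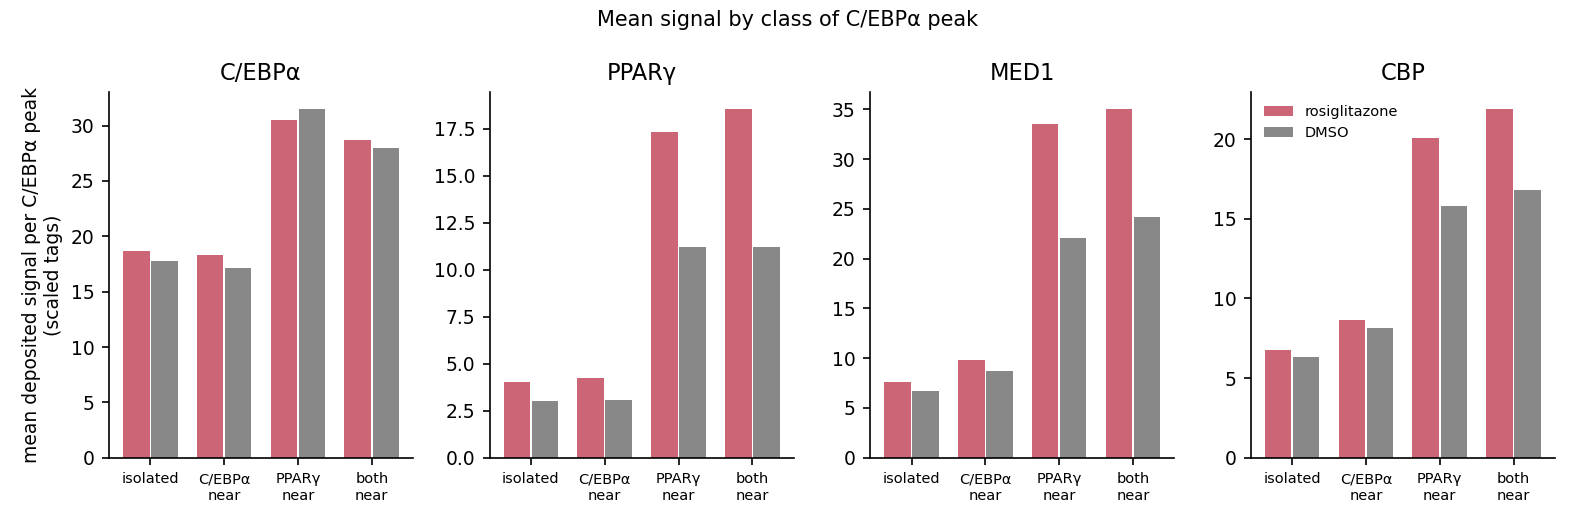
Mean deposited signal per C/EBPα peak (bars from 0, with separate vertical scales) in isolated sites (7540 peaks) and the 3 other classes, rosiglitazone beside DMSO, 1 deposited column each. Isolated sites and peaks with only C/EBPα nearby have low bars for PPARγ, MED1 and CBP, with isolated sites the lowest.

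Many isolated sites had no coactivator tag at all at this depth. No MED1 tag was found in either treatment at 40.6% of isolated sites and 16.7% of the other peaks. No CBP tag was found at 36.1% of isolated sites and 15.8% of the others, and neither coactivator at 20.9% (19.99 to 21.8%) and 6.46% (6.15 to 6.79%). At this depth 0 tags do not show that a protein was absent: the median isolated site had 1 MED1 tag and 2 CBP tags over both treatments. At the other end, 145 isolated sites (1.92%) had at least 20 MED1 tags, against 16.7% of the others, and 271 (3.59%) had at least 20 CBP tags, against 15.5%. Peaks with only C/EBPα nearby came between but nearer to the isolated sites. Of them 31.7% had no MED1 tag, 27.1% no CBP tag and 13.3% neither. At least 20 MED1 tags were found at 2.83% of them and at least 20 CBP tags at 5.52%. A few sites held much of the coactivator signal: the 754 isolated sites with the most MED1 tags, 10% of them by number, held 52.4% of all MED1 tags at isolated sites, and the 754 with the most CBP tags held 50.7% of the CBP tags. For C/EBPα the corresponding share was 28.8%.

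The 2 coactivators met at the same isolated sites more than their overall frequency. Of the 1498 isolated sites with at least 5 MED1 tags, 61.6% also had at least 5 CBP tags, while 26.5% of all isolated sites did. Of the 2001 with at least 5 CBP tags, 46.1% had at least 5 MED1 tags, against 19.9% of all isolated sites. At the other C/EBPα peaks the overlap was 78.0% of MED1 sites and 71.7% of CBP sites, from base levels of 54.5% and 50.1%. Both coactivators were more frequent at sites with more C/EBPα, and the part of C/EBPα height in these overlaps was not tested.

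Isolated sites also had less coactivator per unit of C/EBPα. MED1 per C/EBPα signal was 0.406 in rosiglitazone and 0.376 in DMSO at isolated sites, against 1.13 and 0.783 at the other peaks. CBP per C/EBPα signal was 0.364 in rosiglitazone and 0.356 in DMSO at isolated sites, against 0.707 and 0.556. Isolated sites had the lower value of both coactivators on 20 of 20 chromosomes in both treatments. Over both treatments together, MED1 per C/EBPα signal at isolated sites was 0.408 times that at the other peaks (0.402 to 0.414), and CBP 0.570 times (0.562 to 0.577). PPARγ per C/EBPα signal, which the rule lowers, was 0.399 times (0.395 to 0.403).

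The same was seen when peaks of equal score were set side by side. In 6 score bins from 8 to 400, which leave out the few sites above, the ratio of mean MED1 signal at isolated sites to that at the other peaks was between 0.284 and 0.353 in rosiglitazone and between 0.357 and 0.430 in DMSO. For CBP the ratio was between 0.299 and 0.489 in rosiglitazone and between 0.386 and 0.548 in DMSO, and it was lowest in the top bin in both treatments. Against peaks with only C/EBPα nearby the gap was smaller. In DMSO the ratio was between 0.727 and 0.851 for MED1 in the 5 bins below a score of 80 and 1.03 in the top bin, which holds 55 isolated sites and 15 peaks with only C/EBPα nearby. For CBP in DMSO it was between 0.647 and 0.893 over the 6 bins. Per C/EBPα signal in DMSO, MED1 was lower at isolated sites than at peaks with only C/EBPα nearby on 20 of 20 chromosomes, and CBP on 19.

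**Figure D3:**
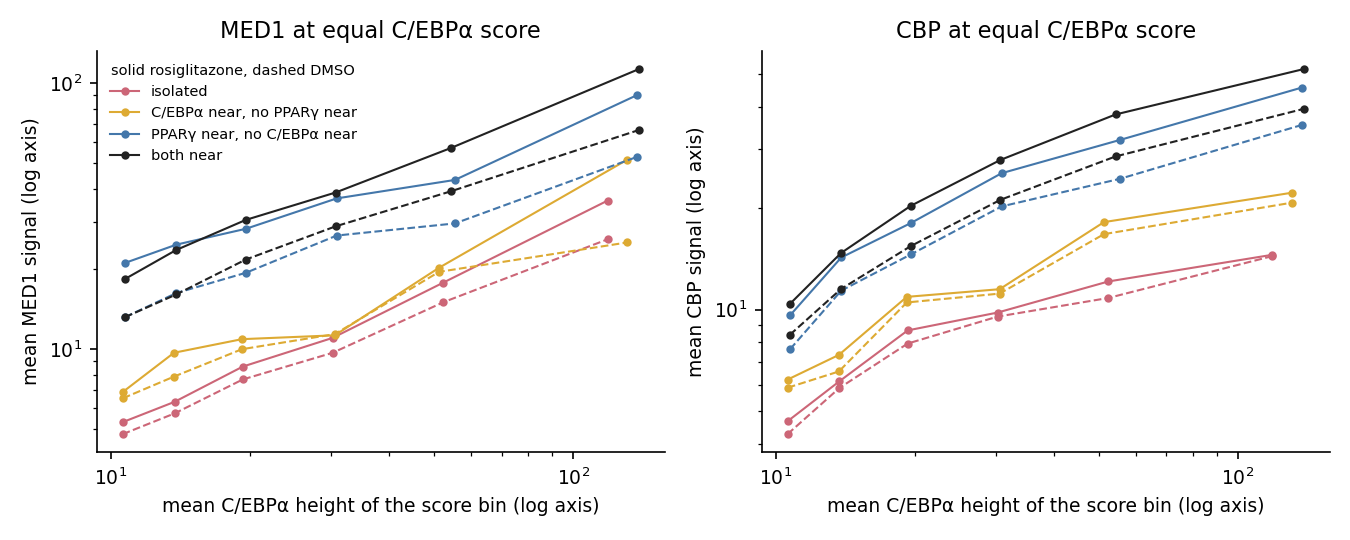
Mean MED1 (left) and CBP (right) signal in 6 bins of C/EBPα score, against the mean C/EBPα height of the bin, on log axes. The lines of isolated sites run lowest in both panels except for MED1 in the top bin in DMSO, and the solid (rosiglitazone) and dashed (DMSO) lines of isolated sites lie closer together than those of the classes with PPARγ nearby.

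Rosiglitazone and DMSO differed little in C/EBPα at isolated sites. Summed C/EBPα signal was 1.049 times as high in rosiglitazone as in DMSO (1.038 to 1.059), above 1 on 19 of 20 chromosomes. At the other peaks the ratio was 1.01 (1.00 to 1.01) and at peaks with only C/EBPα nearby 1.07 (1.046 to 1.09). An error in the scaling of 1 library against the other cannot be told apart from treatment in such a ratio.

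MED1 and CBP were slightly higher in rosiglitazone at isolated sites, and less so than elsewhere. For MED1 the ratio of rosiglitazone to DMSO was 1.13 (1.10 to 1.16) at isolated sites, above 1 on 16 of 20 chromosomes, and 1.46 (1.44 to 1.47) at the other C/EBPα peaks, above 1 on 20 of 20. For CBP it was 1.07 (1.04 to 1.10) at isolated sites and 1.28 (1.27 to 1.29) at the others. The ratio at isolated sites divided by that at the other peaks was 0.776 for MED1 (0.754 to 0.799) and 0.838 for CBP (0.816 to 0.861), and isolated sites had the lower ratio on 20 of 20 chromosomes for both. This comparison of classes is made within the same libraries, so a common scaling error cancels out of it.

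Peaks with only C/EBPα nearby gave almost the values of isolated sites, with ratios of 1.12 for MED1 and 1.06 for CBP. The quotient of the 2 classes was 1.01 for MED1 (0.959 to 1.07) and 1.01 for CBP (0.959 to 1.06). A difference within these intervals was not detectable at this depth. Peaks with only PPARγ nearby had ratios of 1.52 for MED1 and 1.27 for CBP, and isolated PPARγ peaks 1.61 and 1.42. For MED1 and CBP the 2 classes of C/EBPα peaks without a PPARγ peak within 10 kb were thus alike, and those with one were higher. In the latter classes PPARγ was often in the C/EBPα window itself. At least 19 PPARγ tags, the lowest decile limit of listed PPARγ peaks, were found at 59.1% of peaks with only PPARγ nearby. The share was 50.8% at peaks with both nearby. Whether the higher ratios go with a PPARγ peak nearby or with PPARγ at the site itself was not tested.

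**Figure D4:**
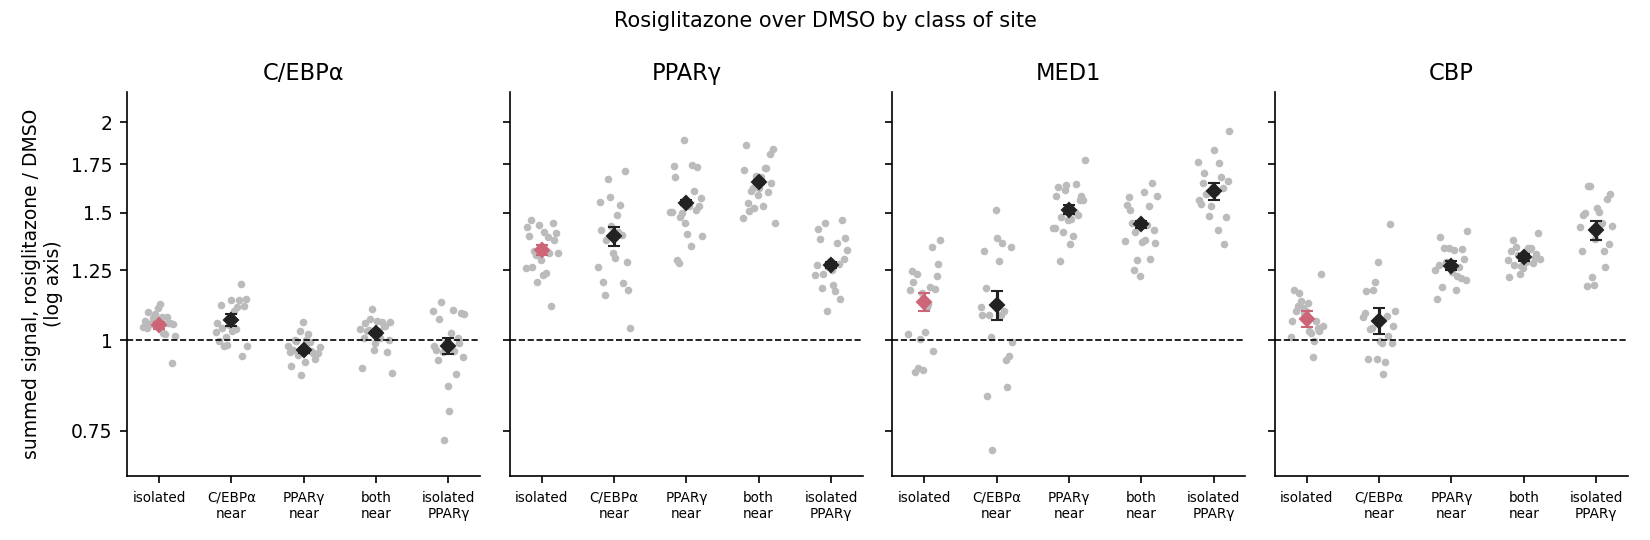
Summed signal in rosiglitazone over DMSO (log axis) for 4 classes of C/EBPα peaks and for isolated PPARγ peaks. Diamonds are all sites with exact 95% counting intervals, grey points are the 20 chromosomes and the dashed line is equality; for MED1, isolated sites (red, 1.13) and peaks with only C/EBPα nearby (1.12) lie below the 3 classes that hold or adjoin PPARγ peaks.

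PPARγ signal at isolated sites was low but was also the factor with the largest difference between treatments. It averaged 4.01 in rosiglitazone and 3.01 in DMSO, a ratio of 1.33 (1.31 to 1.35) that was above 1 on 20 of 20 chromosomes. At the other C/EBPα peaks it averaged 16.8 in rosiglitazone and 10.4 in DMSO, a ratio of 1.61 (1.60 to 1.62). The lowest decile of listed PPARγ peaks ended at 19 PPARγ tags over both treatments. Of the isolated C/EBPα sites 245 (3.25%) reached that number without being near a listed PPARγ peak, against 49.1% of the other C/EBPα peaks, and 33 reached 27 tags, the median of listed PPARγ peaks. The rule moves C/EBPα peaks near a called PPARγ peak into the other class. The gaps in this share and in the PPARγ ratio can therefore follow from the rule and support nothing. Peaks with only C/EBPα nearby, also without a PPARγ peak, had a ratio of 1.39 and a share of 4.24%.

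Counts of single sites past a 2-fold difference did not set isolated sites apart for C/EBPα. Among the 2837 isolated sites with at least 20 C/EBPα tags over both treatments, 399 (14.1%) were at least 2-fold higher in rosiglitazone, on the log2 scale with a pseudocount of 1, beside 13.8% of all 15787 C/EBPα peaks with that many tags. At least 2-fold lower were 197 (6.94%), beside 7.38% of all. The median log2 ratio was 0.09 at these isolated sites and 0.07 over all peaks counted. With a minimum of 10 tags, 1276 of 7539 isolated sites (16.9%) were at least 2-fold higher, beside 15.9% of all 30513 peaks, and 695 (9.22%) were at least 2-fold lower, beside 9.25%. With no minimum the same numbers of sites were counted, beside the same percentages of all peaks. With 20 tags and a pseudocount of 5, 276 of 2837 (9.73%) were higher, beside 10.1% of all, and 130 (4.58%) were lower, beside 4.97%.

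The same counts for the coactivators rest on the few isolated sites with enough tags. Of the 145 with at least 20 MED1 tags, 53 (36.6%) had at least 2-fold higher MED1 in rosiglitazone, beside 37.8% of all 3979 such C/EBPα peaks, and 9 (6.21%) were at least 2-fold lower, beside 9.7% of all. Both are near the background, and the median log2 ratio of MED1 was 0.77 at these isolated sites and 0.76 over all. Of the 271 isolated sites with at least 20 CBP tags, 38 (14.0%) were at least 2-fold higher in rosiglitazone, beside 19.1% of all 3821 such peaks, and 37 (13.7%, 9.80 to 18.3%) were at least 2-fold lower, beside 6.62% of all. The median log2 ratio of CBP was 0.09 at these isolated sites and 0.35 over all. These sites were kept by the tags whose ratio is then read, a site can pass through the treatment in which it is high, and the minimum keeps 1.92% of isolated sites for MED1 against 16.7% of the others, so the counts describe these sites and do not bear on the summed ratios.

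Isolated sites also differed among themselves by height. In 4 groups of 1885 sites in order of score, from low to high, the share with no MED1 tag was 48.6%, 45.5%, 40.1% and 28.2%, and mean MED1 signal in rosiglitazone was 5.11, 6.08, 7.36 and 11.7, against 4.60, 5.33, 6.62 and 10.3 in DMSO. The ratio of rosiglitazone to DMSO varied little over the 4 groups, between 1.11 and 1.15 for MED1 and between 1.06 and 1.09 for CBP. For PPARγ it was 1.28 in the lowest group and 1.41 (1.38 to 1.45) in the highest. The highest group spans scores from 18.6 to 3036.3, and narrower score bins differed more. At the 309 isolated sites scored 40 to 80 the ratio was 1.19 for MED1, 1.12 for CBP and 1.64 for PPARγ. At the 55 scored 80 to 400 it was 1.40, 1.01 and 2.25. At the other peaks in these 2 bins MED1 had 1.45 and 1.70, CBP 1.32 and 1.30, and PPARγ 1.65 and 1.93.

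The most remote isolated sites had the least coactivator. Mean MED1 signal was 8.73 in rosiglitazone and 7.46 in DMSO at the 1802 sites that lay 10 to 15 kb from the nearest peak, and 3.92 and 3.49 at the 781 sites beyond 100 kb. CBP averaged 7.18 in rosiglitazone and 6.90 in DMSO in the nearest group and 4.61 and 3.94 in the farthest. The share of sites with no MED1 tag was 34.4% in the nearest group and 61.3% in the farthest. Median C/EBPα height moved less, being 13.8 in the nearest group and 12.5 in the farthest. The PPARγ ratio was 1.39 (1.34 to 1.43) in the nearest group and 1.16 (1.10 to 1.22) in the farthest, while the MED1 ratio followed no such order, lying between 1.04 and 1.24 over 6 distance groups.

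The MED1 ratio of rosiglitazone to DMSO was highest at the isolated sites where the C/EBPα ratio was lowest, although both ratios were above 1 when summed over all isolated sites. When the 2837 of 7540 sites with at least 20 C/EBPα tags were ranked by their C/EBPα ratio and cut into 5 groups, the MED1 ratio of rosiglitazone to DMSO was 1.56 (1.45 to 1.67) in the group with the lowest C/EBPα ratios, then 1.23, 0.923 and 1.07, and 0.864 (0.786 to 0.949) in the group with the highest. With 3 groups it was 1.47, 0.992 and 0.919, and the lowest group was above the highest on 17 of 20 chromosomes. Among sites with at least 40 C/EBPα tags, 3 groups of 207 sites gave 1.58, 1.09 and 0.988, with 14 of 20 chromosomes in that direction. The CBP ratio was 1.14, 1.049, 0.989, 1.08 and 1.15 over the 5 groups. With at least 40 C/EBPα tags it was 0.976, 1.01 and 1.19 over the 3 groups, and at the other peaks 1.23 in the lowest of 5 groups and 1.38 in the highest, the opposite order to that of MED1. The order of MED1 was not particular to isolated sites: at the other peaks its ratio was 1.85 in the lowest of 5 groups and 1.19 in the highest, and at peaks with only C/EBPα nearby it was 1.29, 1.02 and 0.938 over 3 groups. MED1 and C/EBPα were counted in separate libraries, and whether a property of the libraries moves both ratios was not tested.

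**Figure D5:**
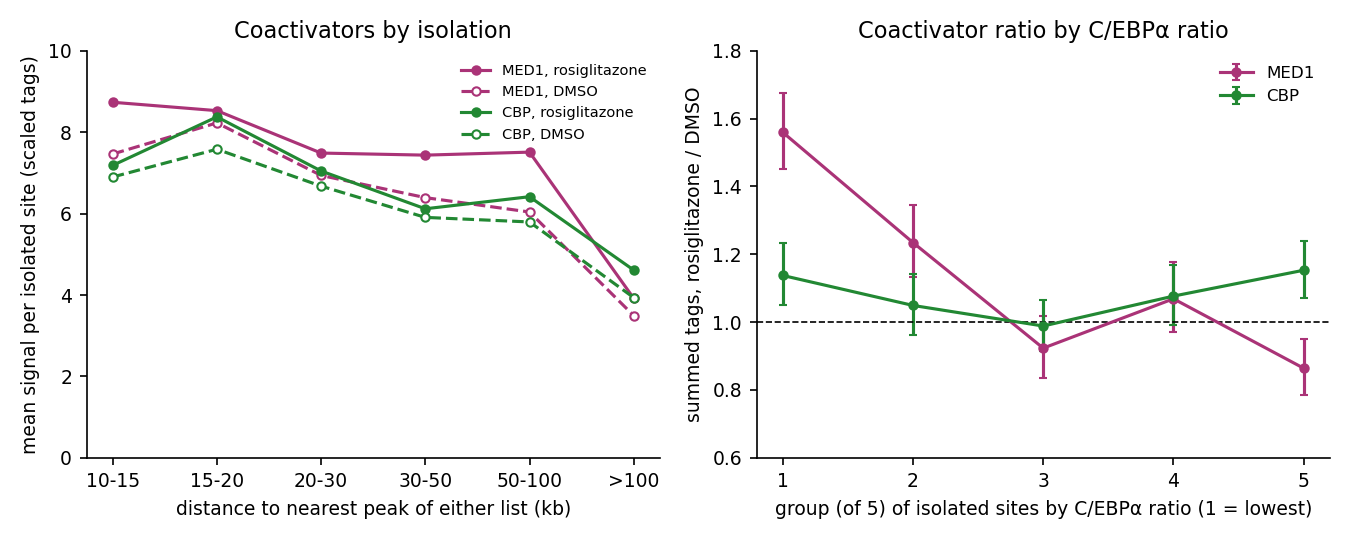
Left, mean MED1 and CBP signal at isolated sites by distance to the nearest peak of either list (filled and solid, rosiglitazone; open and dashed, DMSO), lowest beyond 100 kb. Right, summed MED1 and CBP tags in rosiglitazone over DMSO, as scaled by the authors, in 5 groups of isolated sites (2837 in all) by their C/EBPα ratio, with exact 95% intervals; MED1 is 1.56 in the first group and 0.864 in the last.

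One isolated site stood far above all others. The peak at chr8:24205994-24206224 had the second highest score of the whole C/EBPα list, 3036.3, with C/EBPα signal of 3597 in rosiglitazone and 4487 in DMSO. PPARγ signal there was 1534 in rosiglitazone and 1111 in DMSO, although the nearest listed PPARγ peak is 57.4 kb away. Its coactivator signal was not in proportion, with 14 MED1 tags in rosiglitazone and 16 in DMSO and 1 and 13 CBP tags. Without a reading of the input samples at this site, whether its signal is specific to the antibodies was not tested. This site alone held 5.00% of all PPARγ tags and 2.83% of all C/EBPα tags at isolated sites. Without it the ratios of rosiglitazone to DMSO at isolated sites were 1.06 for C/EBPα, 1.33 for PPARγ, 1.13 for MED1 and 1.07 for CBP.

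The next 9 sites by score ranked between 63 and 332 in the C/EBPα list. At chr13:49777411-49777641 C/EBPα signal was 221.6 in rosiglitazone and 355.5 in DMSO, and MED1 107.1 and 45.4. The site at chr2:59617529-59617759 had C/EBPα of 202.5 in rosiglitazone and 218.6 in DMSO, with 3 and 12 MED1 tags. At chr18:4352911-4353141 C/EBPα was 143.9 in rosiglitazone and 280.4 in DMSO. C/EBPα was lower in rosiglitazone at 9 of the 10 highest sites. The intervals of 2 of the 9 lower sites include 1, with a ratio of 0.926 (0.716 to 1.20) at chr2:59617529-59617759 and 0.788 (0.587 to 1.06) at chr5:8797964-8798194. The tenth of the 10 highest was chr2:30444723-30444953, with 168.1 in rosiglitazone and 128.1 in DMSO, a ratio of 1.31 (0.957 to 1.82). The lowest ratio of the 10 was at chr1:186556493-186556723, where C/EBPα was 101.9 in rosiglitazone and 276.0 in DMSO (ratio 0.369, 0.275 to 0.493).

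High C/EBPα did not always come with a coactivator. The site at chr19:25020024-25020254 had C/EBPα signal of 165.6 in rosiglitazone and 220.8 in DMSO, from 130 and 100 tags, but 1 MED1 tag in all and no CBP tag. The remaining sites of the 10 lay between the extremes. C/EBPα was 161.8 in rosiglitazone and 229.6 in DMSO at chr9:37464728-37464958, 142.7 and 181.1 at chr5:8797964-8798194, and 137.6 and 198.7 at chr8:122364455-122364685. These 3 had between 8 and 15 MED1 tags over both treatments. The site on chromosome 5 is 75.7 kb from the nearest C/EBPα peak and 230.5 kb from the nearest PPARγ peak.

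The largest single differences in C/EBPα came from sites with few or no tags in DMSO. At chr5:33545535-33545765 there were 35 C/EBPα tags in rosiglitazone and 0 in DMSO. The fold was 6.73 when DMSO is set to 3 tags, and the lower bound of the exact interval was 5.19-fold. At chr5:136647320-136647550 there were 20 tags in rosiglitazone and 0 in DMSO, 3.85-fold higher with the same 3 tags, with an exact lower bound of 2.85-fold. A single DMSO tag stood against 55 rosiglitazone tags at chr13:103023654-103023884, where the ratio was 31.7 with an interval of 5.46 to 1276. MED1 at that site was 61.2 in rosiglitazone and 62.9 in DMSO (ratio 0.973, 0.366 to 2.35). The other 2 sites were chr2:49884502-49884732, with 28 tags in rosiglitazone and 1 in DMSO, and chr11:63701549-63701779, with 26 and 1.

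The 5 lowest C/EBPα ratios cannot be set against the 5 highest in size, because the rosiglitazone library was 1.73 times deeper. A site can reach 20 tags through that library alone, and 48 isolated sites had 0 C/EBPα tags in DMSO while 1 had 0 in rosiglitazone. The lowest ratio was at chr12:114002381-114002611, with C/EBPα signal of 6.37 in rosiglitazone and 41.9 in DMSO (5 and 19 tags, ratio 0.152, 0.0443 to 0.420). Signal was likewise 6.37 in rosiglitazone at chr2:174372696-174372926, chr1:153191802-153192032 and chr7:125676545-125676775, against 35.3, 33.1 and 33.1 in DMSO. At chr4:48137635-48137865 it was 7.64 in rosiglitazone and 37.5 in DMSO. MED1 tags were too few at these sites to read a difference. They numbered 3 in rosiglitazone and 7 in DMSO at the chromosome 1 site (ratio 0.938, 0.157 to 4.11), 3 and 6 at the chromosome 7 site (1.09, 0.177 to 5.13) and 5 and 10 at the chromosome 4 site (1.09, 0.294 to 3.52). The chromosome 12 site had 0 and 4 MED1 tags and the chromosome 2 site 0 and 2.

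The 5 sites with the most MED1 differed widely in C/EBPα. The highest mean MED1 was at chr2:90235197-90235427, with 221.9 in rosiglitazone and 129.3 in DMSO, where C/EBPα was 21.7 and 15.5. That site lies 263.2 kb from the nearest PPARγ peak, yet had 37 PPARγ tags in rosiglitazone and 19 in DMSO. At chr2:84567407-84567637 MED1 was 260.2 in rosiglitazone and 62.9 in DMSO, a ratio of 4.14 (2.27 to 7.78), while C/EBPα was 36.9 and 72.9, a ratio of 0.507 (0.297 to 0.861). MED1 was 237.2 in rosiglitazone and 73.4 in DMSO at chr10:116286007-116286237, 191.3 and 94.4 at chr9:71333705-71333935, and 191.3 and 80.4 at chr8:110112247-110112477. C/EBPα at these 3 was 19.1, 107.0 and 7.64 in rosiglitazone and 11.04, 81.7 and 22.1 in DMSO, in the same order. MED1 was the higher in rosiglitazone at all 5, but a choice by mean MED1 favours sites high in that treatment, where 1 tag carries more signal, so this direction supports nothing. CBP at these 5 was between 12.1 and 36.4 in rosiglitazone and between 15.5 and 33.2 in DMSO.

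None of the 5 sites with the most CBP was among the 5 with the most MED1. At chr6:85651971-85652201 CBP was 181.9 in rosiglitazone and 201.1 in DMSO, C/EBPα 10.2 and 24.3, and MED1 30.6 and 125.8. A second site lies on the same stretch of chromosome 6, chr6:85705791-85706021, with CBP of 157.7 in rosiglitazone and 205.5 in DMSO and MED1 of 45.9 and 76.9. The sites chr14:27017184-27017414 and chr14:26737772-26738002 had CBP of 218.3 and 200.1 in rosiglitazone and 132.6 and 117.1 in DMSO. Their MED1 signal did not exceed 23.0 in rosiglitazone and was 14.0 in DMSO at both. The site at chr9:88447987-88448217 had the strongest C/EBPα of the 5 and differed most between treatments. CBP there was 291.1 in rosiglitazone and 81.8 in DMSO, a ratio of 3.56 (2.27 to 5.62), and C/EBPα 59.9 and 19.9, a ratio of 3.01 (1.46 to 6.99).

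Apart from the chromosome 8 site, 3 of the 5 isolated sites with the most PPARγ lie within 1 region of chromosome 10. PPARγ was 57.4 in rosiglitazone and 17.6 in DMSO at chr10:117056376-117056606, 49.0 and 15.8 at chr10:116727518-116727748, and 32.4 and 22.9 at chr10:116985797-116986027. The fifth, chr11:3057742-3057972, had PPARγ of 64.0 in rosiglitazone and 39.6 in DMSO and lies 10.988 kb from the nearest listed PPARγ peak. The stretch of chromosome 10 from 116 to 118 Mb held 18 isolated sites, with a mean PPARγ signal of 17.97 in rosiglitazone and 8.40 in DMSO, against 4.01 and 3.01 over all isolated sites. The stretch was drawn around sites picked for high PPARγ, which are among the 18, so its PPARγ mean supports nothing. By their means the other 3 proteins were also above the mean of isolated sites there. MED1 averaged 43.4 in rosiglitazone and 33.0 in DMSO, CBP 20.6 and 17.7, and C/EBPα 42.5 and 32.5. Medians were lower, with MED1 at 19.1 in rosiglitazone and 31.45 in DMSO and C/EBPα at 29.9 and 18.8. The CBP median was 6.065 in rosiglitazone, below the mean of 6.79 over all isolated sites, and 12.2 in DMSO. Input signal was not read in this stretch, so whether the higher means are specific to the antibodies was not tested.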

How the data were processed

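The submitters' processing notes name Bowtie, FastQC, edgeR and HOMER and the build mm9. Which versions and settings were used, and whether samples were pooled for peak calling, is not given in the sources used here. Both peak lists hold 8 columns of tag signal scaled per library by the authors, a peak score and a fraction headed focus ratio. The score and the fraction are the authors' deposited values, 1 for each peak, and only describe or rank peaks within the list. One MED1 column is headed BRL, which is a development code for rosiglitazone, and was assigned to the MED1 sample treated with it. Because no PPARγ column names a replicate, each stands for its group, and it is not known whether it holds 1 or both samples.

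Distances were measured between centres on the same chromosome. Tags were recovered as whole multiples of the step in each column, and ratios between treatments use the authors' scaling. With 1 column per antibody and treatment no count model was fitted. Intervals are exact binomial (Clopper-Pearson) 95% intervals on tags or shares; those of quotients of ratios between classes, and of signal per C/EBPα signal, use the normal approximation on the log scale. Against 0 tags a fold was computed with 3 tags in that library. Distance and tag calculations were tested on simulated data. Computations used Python 3.11.15, numpy 2.4.6, pandas 2.3.3 and scipy 1.17.1.

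The sites, classes and lists were chosen with earlier results of these data known. Sites named singly are the 10 highest by score, the 5 highest and 5 lowest C/EBPα log2 ratios among sites with at least 20 tags, the 5 highest in mean MED1, CBP and PPARγ, the 3 farthest from any peak, and those nearest inside and outside the limit. The groupings by C/EBPα ratio and distance, the combination of coactivators and the stretch of chromosome 10 were chosen after the values had been seen. No genome or annotation of build mm9 was used, so no gene names, sequences or motifs are given.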

Additional observations from a re-analysis of the deposited data

How the results depend on the processing

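No value reversed direction under any alternative run; the alternatives without the highest-scoring site and without chromosome 10 were chosen after seeing the data. Of 87 values recomputed, 56 stayed within their counting interval, or within 1.5 times for counts of sites, and 31 moved. With a limit of 5 kb the isolated share was 34.6%, the height ratio 0.753, CBP per C/EBPα signal relative to other peaks 0.582 and PPARγ 0.382. With 20 kb these were 14.9%, 0.803, 0.536 and 0.419, MED1 per C/EBPα signal was 0.383, the PPARγ treatment ratio 1.30, and 227 sites were at least 2-fold higher and 118 lower. In the part of the list above the median score the share was 18.2%, the height ratio 0.823, the PPARγ treatment ratio 1.39, and MED1, CBP and PPARγ per C/EBPα signal 0.400, 0.547 and 0.348. Without the top 1% by score the last 3 were 0.396, 0.543 and 0.366 and the C/EBPα treatment ratio was 1.06. Without the highest-scoring isolated site they were 0.419, 0.587 and 0.391, and without chromosome 10 PPARγ was 0.395. With at least 10 tags or no minimum, 1276 sites (16.9%) were at least 2-fold higher and 695 (9.22%) lower, beside 15.9% and 9.25% of all peaks, since more sites are counted. A pseudocount of 5 left 130 lower (4.58%, beside 4.97%). For the other moves the cause was not tested. The treatment ratios of MED1 and CBP stayed within their intervals under every alternative run.

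The MED1 and CBP libraries were 2.19 and 2.74 times deeper in DMSO, and the median isolated site had 0 MED1 and 0 CBP tags in rosiglitazone, so depth limits what single weak sites can show. No paired analysis was possible because the PPARγ columns name no replicate and the other antibodies have 1 sample per treatment. Leaving out replicates was not possible for the same reason. The motif alternatives were not run, since no genome of build mm9 was used.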

Other observations

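These sets were chosen after their values had been seen. There were 23 isolated sites with at least 50 CBP tags over both treatments, and their deposited scores had a median of 15.3, against 12.9 over all isolated sites. Their CBP ratio of rosiglitazone to DMSO was 1.21 (1.08 to 1.35), while their MED1 ratio was 0.554 (0.417 to 0.726) from 332 MED1 tags. The sites were picked by the tags whose CBP ratio is read, and a site can pass mainly through the deeper DMSO library. Other C/EBPα peaks with as many CBP tags were not summed, so nothing particular to isolated sites is shown. Of these sites 3 lie on chromosome 14 with centres 139.7 kb apart in both intervals, and 3 lie on chromosome 6 with centres 53.8 and 47.4 kb apart.

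Of the 55 isolated sites with at least 100 C/EBPα tags, 4 (7.27%, 2.02 to 17.6%) had at most 2 MED1 and CBP tags together, against 15 of 1137 (1.32%, 0.740 to 2.17%) other C/EBPα peaks with that many tags. Among peaks with only C/EBPα nearby, which are part of those others, it was 1 of 15 (6.67%, 0.169 to 31.9%), so nothing particular to isolated sites is shown. Besides the chromosome 19 site among the 10 highest scores, they were chr1:54602620-54602850, chr19:41617203-41617433 and chr8:75817401-75817631. The median over the isolated sites with at least 100 tags was 22 coactivator tags, against 43 at the others and 22 at peaks with only C/EBPα nearby.

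Isolated C/EBPα sites had a mean MED1 signal of 3.29 per 100 bp in rosiglitazone and 2.91 in DMSO. Isolated PPARγ peaks, whose windows are 186 bp wide, had 6.14 and 3.82. For CBP the values per 100 bp were 2.95 in rosiglitazone and 2.76 in DMSO at isolated C/EBPα sites and 3.40 and 2.40 at isolated PPARγ peaks. Per window, CBP was 6.79 in rosiglitazone and 6.34 in DMSO at isolated C/EBPα sites and 6.32 and 4.46 at isolated PPARγ peaks, so the direction in rosiglitazone turns with the division by window width.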
